A study of Mus musculus with 2 samples.

Results

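The neurotrophins and their receptors were followed here through 5 genes: Bdnf and Ntf3, which encode the ligands BDNF and NT-3, and Ntrk2, Ntrk3 and Ngfr, which encode the receptors TrkB, TrkC and p75NTR. They are 5 of the 21884 protein-coding genes examined, and were chosen by name. Each locus was taken as the gene in GENCODE M21 with 20 kb on either side. Transcripts of a gene whose first exons overlap were treated as 1 promoter, which gave 29 promoters of the 55856 promoters of protein-coding genes. A promoter was called open in a library when a peak lay within 500 bp of a start, and a peak was called distal when it lay over 1 kb from every annotated start of any gene.

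DNase-seq maps DNA that the nuclease DNase I can cut, which marks promoters and enhancers not covered by nucleosomes. The samples were 2 libraries of hippocampus, whose tissue term in the labels is layer of hippocampus, from B6CASTF1/J females aged 14 days, with 3 females named in each label. B6CASTF1/J is a first-generation hybrid between the C57BL/6J and CAST/EiJ strains. In the labels they are biological replicates 1 and 2, with different biosamples and 1 donor identifier, and the sources used here do not say whether separate animals or pools stand behind them, which means that part of their difference may be technical.

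Neurotrophins are secreted growth factors that are made as precursors and cleaved by proprotein convertases. Mature BDNF binds TrkB and NT-3 binds TrkC, both receptor tyrosine kinases that signal through the MAP kinase, PI3 kinase and phospholipase C routes, while p75NTR binds all mature neurotrophins and, with sortilin, the precursors. In the hippocampus BDNF and TrkB are known for their part in dendrite growth and synaptic plasticity, and Bdnf is known for a row of alternative first exons, each with its own promoter and all spliced to the same coding exon.

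Replicate 1 had 115699 peaks and replicate 2 had 167829. The signal printed with each peak is the authors' own value in a unit that is not stated, with no depth in reads, so it was ranked only within a library, where the median peak had 0.821 in replicate 1 and 0.485 in replicate 2. With 1 group of 2 libraries there is no comparison between conditions and no test, and both libraries' values are given throughout. Promoters were open in both libraries at 63.2% of protein-coding genes and at 10 of 10 excitatory neuron markers, at 5 of 5 of astrocytes, 5 of 7 of the oligodendrocyte lineage, 3 of 4 of vessels, 3 of 5 of microglia and 2 of 5 of inhibitory neurons. Of 7 markers of other tissues none had one in both, and 3 had a weak peak in 1 library. Microglia and inhibitory neurons were thus at or below the share of all genes. Hippocampus holds many cell types, and a site open in few cells and a site weakly open in many cannot be told apart.

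The sequences below are those the results turn on, read from the RefSeq copy of the GRCm38.p6 genome, the assembly that mm10 names. It is the C57BL/6J sequence, and CAST/EiJ alleles were not examined. Each is printed 5′ to 3′ on the strand of its gene, and capitals mark bases that lie in footprints of both libraries, a footprint being a short run protected from cutting inside open DNA. The first pair are the 250 bp upstream of Bdnf first exons 4 (chr2:109692186-109692435, plus strand) and 6 (chr2:109693313-109693562, plus strand), promoters whose peak spans the start in both libraries. They are followed by the strongest Bdnf promoter-class peak, in the intron after first exon 7 (chr2:109694921-109695120, plus strand), and the strongest peak in the intron after first exon 3 (chr2:109678121-109678320, plus strand).
Bdnf promoter 4: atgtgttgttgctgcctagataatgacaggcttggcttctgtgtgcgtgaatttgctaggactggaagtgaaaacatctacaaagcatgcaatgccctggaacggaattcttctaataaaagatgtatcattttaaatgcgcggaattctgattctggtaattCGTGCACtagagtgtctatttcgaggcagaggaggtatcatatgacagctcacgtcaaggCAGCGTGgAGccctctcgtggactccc
Bdnf promoter 6: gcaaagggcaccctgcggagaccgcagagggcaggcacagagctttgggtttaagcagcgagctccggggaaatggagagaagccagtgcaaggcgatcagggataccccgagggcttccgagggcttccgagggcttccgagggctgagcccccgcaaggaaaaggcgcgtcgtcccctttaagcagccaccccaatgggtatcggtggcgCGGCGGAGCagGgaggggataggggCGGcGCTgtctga
Bdnf intron after first exon 7: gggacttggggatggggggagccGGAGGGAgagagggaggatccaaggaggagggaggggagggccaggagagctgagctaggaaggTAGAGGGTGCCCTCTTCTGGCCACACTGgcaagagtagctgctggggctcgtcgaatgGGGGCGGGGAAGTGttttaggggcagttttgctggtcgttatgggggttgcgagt
Bdnf intron after first exon 3: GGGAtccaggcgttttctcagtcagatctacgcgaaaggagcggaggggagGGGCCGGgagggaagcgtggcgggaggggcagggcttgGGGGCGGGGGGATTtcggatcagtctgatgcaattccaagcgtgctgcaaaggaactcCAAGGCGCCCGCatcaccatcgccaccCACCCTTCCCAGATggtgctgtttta

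For the other genes leading sites found in both libraries are shown, distal ones chosen by the smaller of their percentiles in both. The Ntrk3 peak with the highest signal in replicate 2, 352 kb into the gene, is not among them. They are the Ntf3 intronic peak (chr6:126106501-126106700, minus strand), the 250 bp upstream of Ntrk2 promoter 1 (chr13:58806319-58806568, plus strand), both leading Ntrk2 intronic peaks (chr13:59073661-59073860 and chr13:59092791-59092990, plus strand), the Ntrk3 intronic peak (chr7:78390101-78390300, minus strand) and the Ngfr intronic peak (chr11:95586301-95586500, minus strand).
Ntf3 intron: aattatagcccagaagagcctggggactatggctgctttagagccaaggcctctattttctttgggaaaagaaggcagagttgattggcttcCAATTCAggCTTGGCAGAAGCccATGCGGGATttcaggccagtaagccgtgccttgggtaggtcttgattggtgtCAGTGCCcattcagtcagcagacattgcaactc
Ntrk2 promoter 1: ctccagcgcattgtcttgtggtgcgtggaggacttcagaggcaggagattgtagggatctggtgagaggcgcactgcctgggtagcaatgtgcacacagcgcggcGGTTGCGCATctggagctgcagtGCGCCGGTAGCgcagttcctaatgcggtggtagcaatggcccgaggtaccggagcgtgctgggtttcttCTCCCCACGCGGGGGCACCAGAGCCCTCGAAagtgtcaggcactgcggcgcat
Ntrk2 intron, 267 kb: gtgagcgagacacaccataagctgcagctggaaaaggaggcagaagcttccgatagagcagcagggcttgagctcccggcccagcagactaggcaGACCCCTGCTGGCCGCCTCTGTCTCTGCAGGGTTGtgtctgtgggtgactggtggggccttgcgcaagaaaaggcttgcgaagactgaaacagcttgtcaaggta
Ntrk2 intron, 286 kb: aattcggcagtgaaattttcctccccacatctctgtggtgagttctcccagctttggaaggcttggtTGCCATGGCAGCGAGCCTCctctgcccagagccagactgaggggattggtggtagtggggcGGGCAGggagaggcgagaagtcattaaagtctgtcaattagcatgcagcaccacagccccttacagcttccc
Ntrk3 intron: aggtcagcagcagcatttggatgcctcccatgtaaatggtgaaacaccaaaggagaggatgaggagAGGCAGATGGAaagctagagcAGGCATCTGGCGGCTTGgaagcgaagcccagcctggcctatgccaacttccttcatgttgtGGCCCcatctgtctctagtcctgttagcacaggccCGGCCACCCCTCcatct
Ngfr intron: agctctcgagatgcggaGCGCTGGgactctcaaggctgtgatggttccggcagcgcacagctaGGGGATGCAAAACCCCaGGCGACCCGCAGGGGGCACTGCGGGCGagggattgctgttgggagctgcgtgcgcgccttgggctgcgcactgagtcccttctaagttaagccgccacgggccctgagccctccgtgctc

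Of the 29 promoters, 16 were open in replicate 1, 16 in replicate 2 and 15 in both. Over all promoters of protein-coding genes the shares were 39.7% in replicate 1, 38.4% in replicate 2 and 35.6% in both. The open promoters were spread unevenly: 7 of 8 at Bdnf, 3 of 5 at Ntrk2, 4 of 13 at Ntrk3, the single promoter of Ngfr and 0 of 2 at Ntf3. As genes, all 5 had a promoter peak in replicate 1 and 4 in replicate 2, against 67.2% and 64.9% of protein-coding genes. In both libraries it was 4 of 5, against 63.2%.

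**Figure D1:**
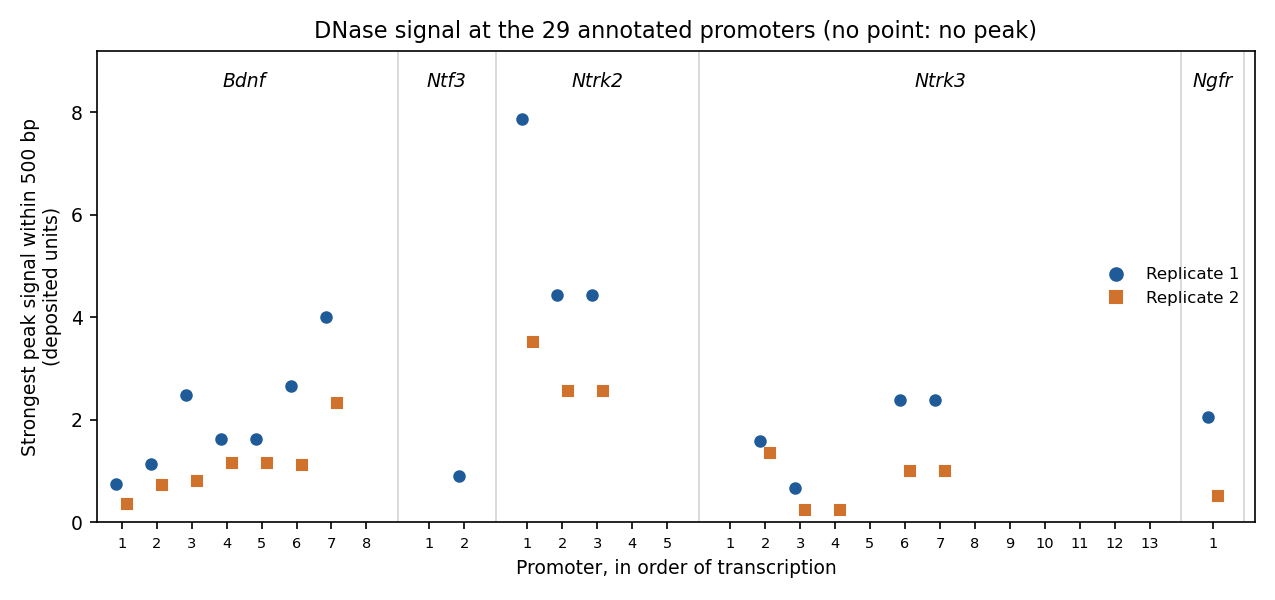
Strongest peak signal (deposited units) within 500 bp of each of the 29 promoters, numbered in order of transcription, with circles for replicate 1 and squares for replicate 2. Ntrk2 promoter 1 is the highest in both libraries (7.87 and 3.51), Bdnf promoters 1 to 7 carry points in both, and most Ntrk3 promoters carry none.

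Bdnf (ENSMUSG00000048482.14, chr2:109674700-109727007, plus strand) spans 52.3 kb and has 11 annotated transcripts on 8 separate first exons, where the median protein-coding gene has 2 promoters and only 635 genes have as many as 8. The first exons are numbered here in order of transcription, the same order in which the literature's Roman numerals run. Promoters 1 to 3 lie within 2332 bp of the gene's start, promoters 4 to 7 lie between 17736 and 19709 bp, and promoter 8 lies at 34683 bp. Promoters 1 to 7 were open in both libraries, and promoter 8 had no peak, no footprint and no base with an FDR under 0.05 in either.

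Within the first group, signal climbed along the gene in both libraries. The strongest peak at promoter 1 reached 0.745 in replicate 1 and 0.363 in replicate 2. At promoter 2 it was 1.15 and 0.733. Promoter 3 reached 2.49 and 0.813, which placed it at the 57.1 and 48.9 percentile of promoter peaks. At none of promoters 1 to 3 did the strongest peak cover the start. It lay 200 and 220 bp upstream at promoter 1, where it overlapped Gm20638, a noncoding gene on the same strand. At promoters 2 and 3 it lay downstream of the start, by 124 and 284 bp at promoter 2 and by 129 and 149 bp at promoter 3. The intron after first exon 3 then held a stronger peak than any of these, with 2.98 in replicate 1 and 2.07 in replicate 2. It fell on both sides of the distance limit, since its edge lay 1009 bp from a start in replicate 1, which made it distal, and 989 bp in replicate 2, which made it neither promoter nor distal. It held 7 footprints in replicate 1, of which 6 overlapped one of replicate 2. A noncoding gene on the opposite strand, Gm45346, covers first exons 1 and 2 and starts between first exons 2 and 3, and DNase-seq does not record a strand, so these peaks cannot be divided between the pair of genes.

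In the second group the peaks at promoters 4 and 6 spanned the start in both libraries. Exon IV, the first of this group in the usual numbering, is known for a promoter that answers to neuronal activity through calcium and CREB. Promoter 4 had 1.62 in replicate 1 and 1.15 in replicate 2, with 7 and 4 footprints in its window. Promoter 6 had 2.66 and 1.12, with 14 and 10 footprints, 9 of the 14 overlapping one of the other library. Promoter 5 counted as open through its neighbours: in replicate 1 its only peak was that of promoter 4, which ended 467 bp upstream, and in replicate 2 its own peak was a 52 bp interval of 0.237. Within 250 bp of a start, 6 of 8 Bdnf promoters remained open in both libraries, in place of 7.

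The strongest Bdnf signal of all came from the intron after first exon 7. That peak had the same borders in both libraries, chr2:109694921-109695120, and reached 4.00 in replicate 1 and 2.32 in replicate 2, the 67.6 and 74.9 percentile of promoter peaks. It lay 452 bp downstream of the nearer start, so it counts for promoter 7, while the peak that spans the start had only 1.04 and 0.312. It held 4 footprints in each library, and 49 of its 200 bases were in footprints of both. This peak was picked for printing after its values were seen. As a gene, Bdnf stood at the 38.3 and 47.0 percentile of genes with a promoter peak, below the median gene's 5.62 and 2.52.

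**Figure D2:**
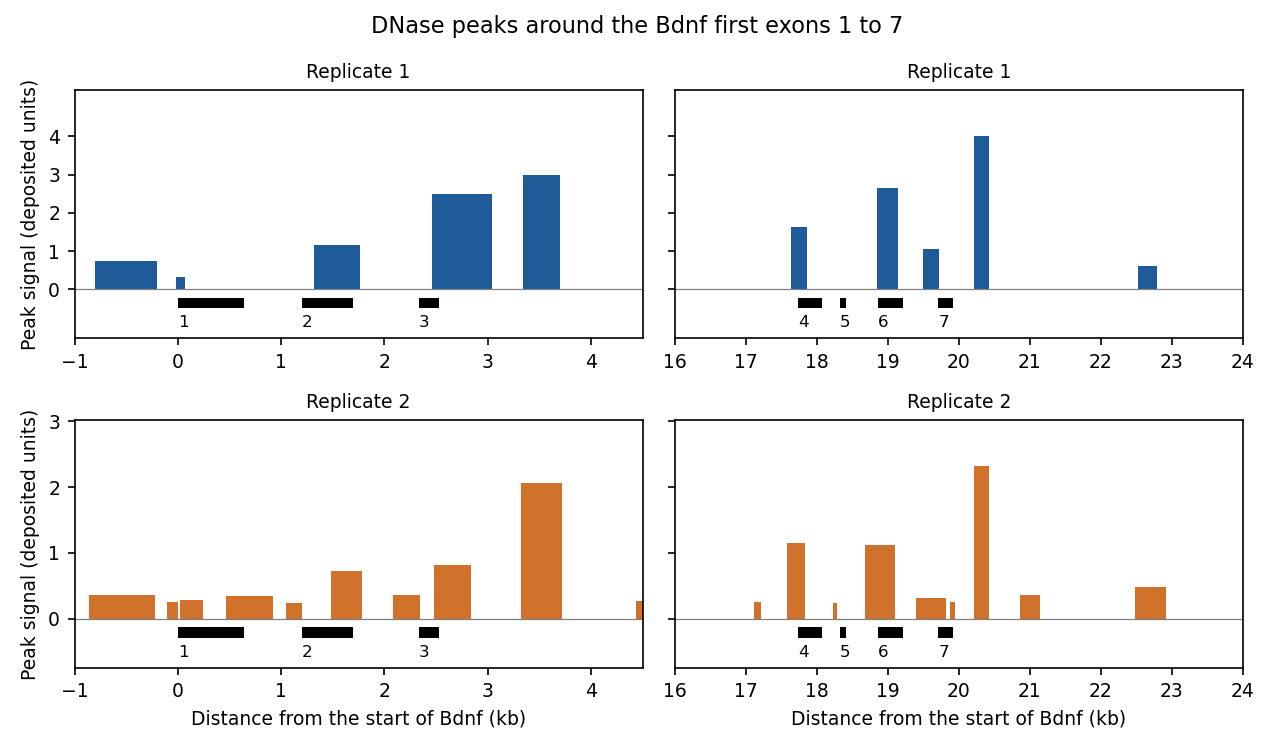
Bdnf peaks by distance from the gene's start in kb, with bar height the peak signal in deposited units and bar width the peak, for both groups of first exons (black boxes, numbered 1 to 7), replicate 1 above and replicate 2 below. The tallest bar in each library is the intronic peak after first exon 7 (4.00 and 2.32), followed by the peak after first exon 3 (2.98 and 2.07).

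The authors' base-by-base FDR of the cut rate comes from the same libraries as the peaks and is not independent of them. It had no base under 0.05 at promoter 8 in either library. From promoter 4 to promoter 7 each window overlaps the next, so neighbouring shares hold some of the same bases. Of the bases in the window of promoter 6, 100% in replicate 1 and 90.0% in replicate 2 had an FDR under 0.05. At promoter 7 the shares were 95.4% and 97.5%. Those of promoters 1, 2 and 3 were 55.1%, 44.6% and 53.4% in replicate 1 and 74.3%, 83.0% and 100% in replicate 2. At promoters 4 and 5 they were 53.0% and 86.9% in replicate 1 and 58.1% and 62.3% in replicate 2. The median promoter of a protein-coding gene had 0%, and 58.6% and 60.0% of promoters had no such base, while promoters 1 to 7 of Bdnf each had at least 44.6% in both libraries. The lowest FDR at promoter 7 was 1.15e-21 in replicate 1 and 2.27e-47 in replicate 2, against 1.66e-05 and 0.000135 at promoter 1.

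Bdnf had 4 distal peaks in replicate 1 and 9 in replicate 2, against medians of 3 and 4 for genes of its length decile, the 72.4 and 92.5 percentile. Besides the peak after first exon 3, the other shared one was chr2:109697221-109697499, also intronic, with 0.608 and 0.485. The strongest found in 1 library was chr2:109711121-109711360, with 1.07 in replicate 2 and no peak in replicate 1. It lies 1738 bp from the nearest start, downstream of first exon 8, at whose promoter no peak was detected.

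Ntf3 (ENSMUSG00000049107.13, chr6:126101412-126166910, minus strand) encodes the ligand of TrkC. Its promoter 1, the start of 2 coding transcripts, had no peak and no base with an FDR under 0.05 in either library. At promoter 2 replicate 1 had a 62 bp peak of 0.904, the 26.7 percentile of promoter peaks, and replicate 2 had none. Of the 5 genes it was the only one without a promoter peak in both libraries. Open DNA was found elsewhere in the locus: of 4 distal peaks in replicate 1, 3 overlapped one of the 10 in replicate 2. The strongest was the intronic peak chr6:126106501-126106700, which lay 60.3 kb from the gene's start and had 1.55 in replicate 1 and 0.923 in replicate 2. Its 3 footprints in replicate 1 all overlapped one in replicate 2. The other shared peaks were chr6:126163265-126163480 in an intron, with 1.06 and 0.502, and chr6:126096221-126096360 downstream of the gene, with 0.729 and 0.536. A peak of 1.23 in replicate 2, 971 bp from a start, fell between the promoter and distal limits, and the strongest distal peak of 1 library only was chr6:126161732-126161912, with 0.565 in replicate 2.

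Ntrk2 (ENSMUSG00000055254.15, chr13:58806569-59133970, plus strand) encodes TrkB and had the strongest promoter of the 5. Promoter 1 had 7.87 in replicate 1 and 3.51 in replicate 2, from peaks that span the start, the 82.7 and 84.0 percentile of promoter peaks. Promoter 2 had 4.44 and 2.57, also across its start. Promoter 3 shares that peak and had a weaker one of its own over the start, with 3.61 and 1.38. These 3 promoters lie within 1712 bp and serve all 7 coding transcripts, while promoters 4 and 5, each the start of 1 transcript not annotated as protein-coding, had no peak, no footprint and no base with an FDR under 0.05. In the 250 bp upstream of promoter 1, 52 bases lay in footprints of both libraries, in 3 runs. As a gene, Ntrk2 stood at the 63.4 and 63.7 percentile of genes with a promoter peak.

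Ntrk2 also had the most distal peaks of the 5 in replicate 1, with 37, and the second most in replicate 2, with 34. The leading one was chr13:59073661-59073860, in an intron 267 kb from the gene's start, at 6.03 in replicate 1, the 98.4 percentile of distal peaks, and 2.53 in replicate 2. A neighbour 200 bp further on, chr13:59074061-59074260, had 2.17 in replicate 1 and overlapped the same peak of replicate 2. Next came chr13:59092801-59092980, 286 kb from the start, with 3.93 and 2.09. These 3 peaks lie beyond the ends of the shorter coding transcripts, in the stretch that only the longer transcripts cover, and TrkB is known to have a short form that lacks the kinase domain and a long form that carries it. The noncoding gene 4930415C11Rik runs across the peaks at 267 kb on the opposite strand.

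Between the start of Ntrk2 and the end of the shorter transcripts, 130.5 kb, there were 6 distal peaks in replicate 1 and 8 in replicate 2, at most 1.58 and 1.36. Beyond them, over 196.9 kb, there were 29 and 23, with a highest signal of 6.03 and 2.53. Part of the replicate 1 count came from a 17.0 kb stretch, chr13:59099197-59116199, with 11 peaks of 0.0836 to 0.722, none of which overlapped a peak of replicate 2, where the stretch held 0. Without that stretch, which was singled out after its values were seen, replicate 1 had 26 distal peaks, and 73.1% of them overlapped a peak of replicate 2, compared with 51.4% of all 37. The strongest distal peak of 1 library was chr13:58838181-58838400 in an exon, with 1.36 in replicate 2.

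**Figure D3:**
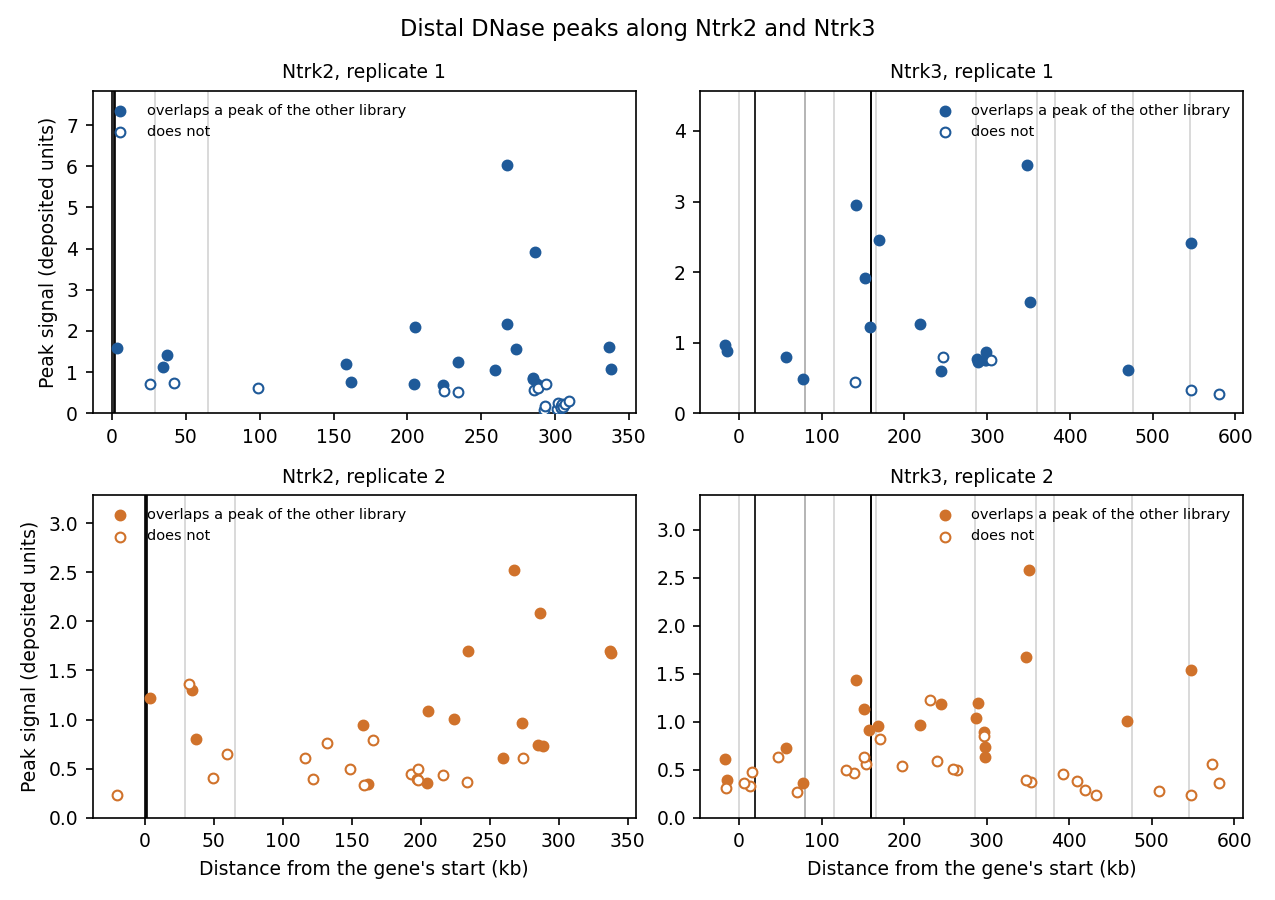
Distal peaks along Ntrk2 (left) and Ntrk3 (right), distance from the gene's start in kb against peak signal in deposited units, replicate 1 above and replicate 2 below. Filled points overlap a peak of the other library, black lines mark promoters open in both libraries and grey lines the others. The highest Ntrk2 points lie at 267 and 286 kb, and the run of open points near 300 kb appears in replicate 1.

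Ntrk3 (ENSMUSG00000059146.12, chr7:78175959-78738012, minus strand) encodes TrkC and is the longest of the 5, with 562 kb, 20 transcripts and 13 promoters, a number that 57 protein-coding genes reach or pass. Only 2 of the 13 start transcripts annotated as protein-coding. Promoter 7, the start of 5 coding transcripts, lies 159604 bp into the annotated gene. It had a strongest peak of 2.39 in replicate 1 and 1.01 in replicate 2, the 56.1 and 55.4 percentile of promoter peaks. These are different peaks: that of replicate 2 lay 113 bp upstream and spans the start of promoter 6. The replicate 2 peak that overlaps the one of replicate 1 had 0.923. The window of promoter 7 overlaps that of promoter 6 and held 5 peaks in each library. Of those in replicate 1, chr7:78577561-78577820 lies within chr7:78577101-78577820. Of the window's bases, 100% and 85.2% had an FDR under 0.05 in replicates 1 and 2. Gm9885, a noncoding gene on the opposite strand, starts there too. Promoter 4, the other coding start, had no peak in replicate 1 and 0.248 in replicate 2.

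Away from promoter 7 only promoter 2, the start of a transcript not annotated as coding, had more than a weak signal, with 1.59 in replicate 1 and 1.35 in replicate 2. Promoter 3 had 0.669 and 0.248, and promoters 1, 5 and 8 to 13 had no peak. As a gene, Ntrk3 stood at the 25.7 and 29.9 percentile of genes with a promoter peak. Its strongest promoter peak was that of promoters 6 and 7 in replicate 1 and that of promoter 2 in replicate 2.

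Ntrk3 had 24 distal peaks in replicate 1 and 46 in replicate 2, and 19 of the 24 were shared. The strongest in replicate 1 was chr7:78390081-78390320, an intronic peak 348 kb into the gene, with 3.52 in replicate 1 and 1.68 in replicate 2. The order turned for a neighbour 352 kb into the gene, chr7:78386021-78386240, which had 1.58 in replicate 1 and 2.58 in replicate 2, the highest of that library. A peak upstream of the main coding start, chr7:78596001-78596180, had 2.95 and 1.44. Near the 3′ end, 547 kb into the gene, an exonic peak at chr7:78191021-78191240 had 2.42 and 1.53. Upstream of the main coding start there were 6 distal peaks in replicate 1 and 14 in replicate 2, from there to the end of the shorter coding transcript 12 and 23, and beyond it 3 and 4. The strongest Ntrk3 peak of 1 library was chr7:78507141-78507360, with 1.22 in replicate 2.

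Ngfr (ENSMUSG00000000120.6, chr11:95568818-95587735, minus strand) encodes p75NTR, has 1 transcript and is the shortest of the 5, with 18.9 kb. Its promoter peak, chr11:95587521-95587760 in replicate 1, had 2.05 in replicate 1 and 0.508 in replicate 2, the 22.4 and 9.84 percentile of genes with a promoter peak. Replicate 1 had 4 footprints in the promoter window and replicate 2 had none. The strongest site of the locus was in an intron 1.33 kb from the start: the peak chr11:95586301-95586500 had 5.19 in replicate 1, the 97.7 percentile of distal peaks, and 1.29 in replicate 2. It held 3 footprints in each library, with 50 of its 200 bases in footprints of both. The other leading shared peaks were chr11:95577861-95578040, at an exon, with 1.21 and 0.583, and chr11:95575081-95575340, with 1.10 and 0.663. The strongest Ngfr peak of 1 library was chr11:95571921-95572000, with 0.623 in replicate 1.

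At Ngfr and Ntrk3 the strongest distal peak exceeded the strongest promoter peak in both libraries. The ratio was 2.53 and 2.55 at Ngfr and 1.47 and 1.91 at Ntrk3. At Ntrk3 the libraries set different sites against each other. In replicate 1 it was the distal peak at 348 kb (3.52) over the peak of promoters 6 and 7 (2.39). In replicate 2 it was the distal peak at 352 kb (2.58) over that of promoter 2 (1.35). The Ngfr ratio depends on the distance limit, since its peak lies 1235 bp from a start in replicate 1. With distal peaks over 2 kb from any start, a limit tried here after seeing the data, the Ngfr ratio turned to 0.589 in replicate 1 and was 1.31 in replicate 2, while that of Ntrk3 was the same as before. Among the 11518 protein-coding genes with a promoter and a distal peak in both libraries, 19.4% did so. The ratio was below 1 at Ntrk2, with 0.766 and 0.719, and at Bdnf, with 0.745 and 0.463. Bdnf's depends on the distance limits in both libraries. The peak after first exon 3 counts as distal in replicate 1 (2.98), at 1009 bp from a start, but not in replicate 2 (2.07), at 989 bp. With it counted in both, the promoter peak of 4.00 and 2.32 still stood above. That promoter peak lies 452 bp from a start, however. The strongest Bdnf peaks that span a start had 2.66 and 1.15, below the 2.98 and 2.07 of the peak after first exon 3. At Ntf3 the ratio was 1.71 in replicate 1 and could not be formed in replicate 2.

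**Figure D4:**
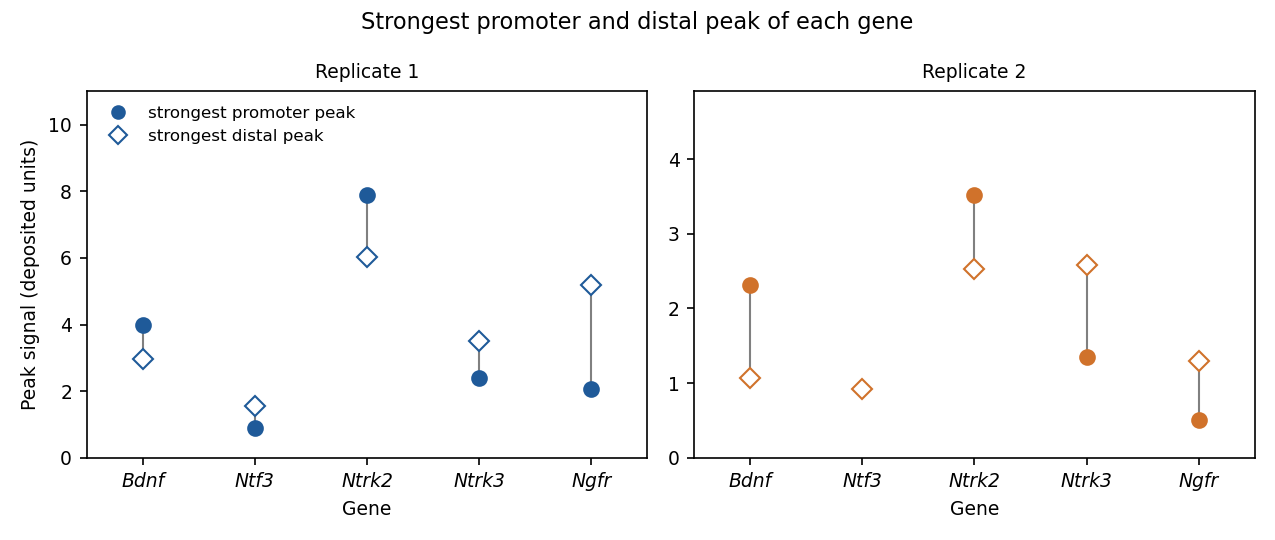
Signal (deposited units) of the strongest promoter peak (filled circle) and the strongest distal peak over 1 kb from a start (open diamond) of each gene, replicate 1 left and replicate 2 right. The diamond is above the circle at Ntrk3 and Ngfr and below it at Bdnf and Ntrk2 in both libraries, and Ntf3 has no circle in replicate 2.

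In all, the 5 loci held 75 distal peaks in replicate 1 and 105 in replicate 2. Of the 75, 48 overlapped a peak of replicate 2, or 64% with a Wilson 95% interval of 52.7 to 73.9%, which covers counting error only. The 75 include the 11 peaks of the 17.0 kb Ntrk2 stretch, none of them shared, which lowers the share. At Ntrk2 it was 51.4% with that stretch and 73.1% without it. Over all distal peaks of replicate 1 the share was 68.9%. In the other direction it was 42.9% (33.8 to 52.4%), against 42.7% of all distal peaks of replicate 2. Shared peaks were the stronger ones, with a median signal of 1.08 against 0.334 for the rest in replicate 1 and 0.946 against 0.401 in replicate 2. The rest in replicate 1 include the 11 peaks of the Ntrk2 stretch, whose median was 0.182. Of all distal peaks of the loci, shared or not, 60 of 75 and 83 of 105 were intronic. The Ntrk2 and Ntrk3 loci are mostly gene body (327 of 367 kb and 562 of 602 kb), and the intronic share of all distal peaks was not counted. A footprint lay in 56 of 75 and 85 of 105, near the 75.7% and 78.9% of all distal peaks.

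Against genes of the same length decile, density set Ntrk2 and Ngfr above the other members in replicate 1. Ntrk2 had 1.01 distal peaks per 10 kb in replicate 1 and 0.925 in replicate 2, against medians of 0.321 and 0.602, the 96.4 and 86.5 percentile. These densities include the 17.0 kb stretch, and the density without it was not ranked. By count, which is not corrected for length, Ntrk2 stood at the 93.0 percentile with the 26 peaks left, from 97.0 for 37. Ngfr had 1.02 in each, against 0.321 and 0.478, the 92.1 and 89.0 percentile. Ntrk3 had counts far above the median gene of its decile, which holds genes of 109.9 to 4435 kb, but was nearer to it per length, with 0.399 and 0.764 and the 62.7 and 71.6 percentile. Bdnf had 0.433 and 0.975, the 64.8 and 88.0 percentile, and Ntf3 had 0.379 and 0.948, the 58.1 and 86.5 percentile. In replicate 2 Bdnf, Ntf3, Ntrk2 and Ngfr thus stood close together, between the 86.5 and 89.0 percentile.

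**Figure D5:**
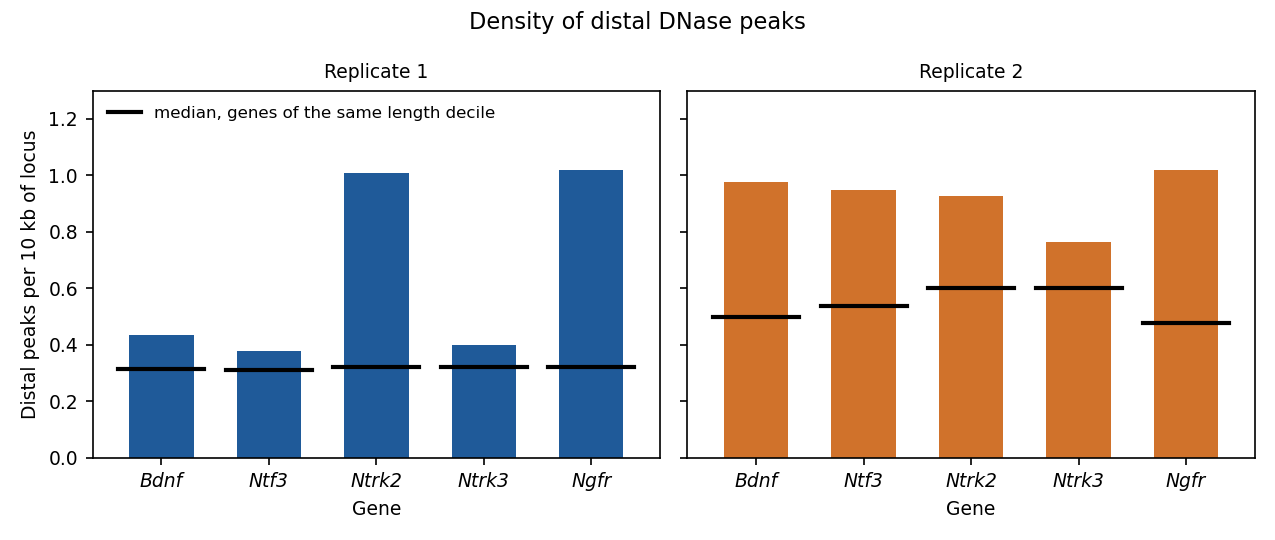
Distal peaks per 10 kb of locus (bars) with the median of protein-coding genes in the same length decile (black lines), replicate 1 left and replicate 2 right. Every bar is above its line, by most at Ntrk2 and Ngfr in replicate 1 (1.01 and 1.02 against 0.321).

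A search of both strands for short consensus sequences in the printed windows and the others of their kind found few matches inside footprints of both libraries. The letters searched were TGACGTCA and the shorter TGACG for CREB, TGANTCA for AP-1, CACGTG for USF, CAGATG for NeuroD-type factors, GGGCGG for the GC box, TTGGCA for NFI, GTTGCC for RFX and GTGGGCG for EGR, with the CTCF consensus by name. Shares given below count the letters anywhere in a window, in a footprint or not, and distal windows are those of all distal peaks of replicate 1. The Ntrk3 intronic peak had CAGATG, in either orientation, wholly in shared footprints at 2 places. Anywhere in the window, 25.6% of distal windows of 200 bp hold that sequence. The Ntf3 intronic peak had TTGGCA in one, a sequence in 20.1% of such windows. GGGCGG lay in shared footprints of both Bdnf intronic peaks, and is in 9.01% of distal windows and in 24.5% of the 250 bp upstream of promoters, where the peak after first exon 7 counts as a promoter peak. At Bdnf promoter 4 TGACG lay 35 bp upstream of the start with no base in a shared footprint, and 14.9% of promoters hold it. The full TGACGTCA, in 1.07% of promoters, was in none of the windows. At Bdnf promoter 6 GGGCGG lay 16 bp upstream with 3 of its 6 bases in shared footprints, and at Ntrk2 promoter 1 CAGATG lay 138 bp upstream, also with 3 of 6. CAGATG is in 15.6% of promoters. In the Bdnf peak after first exon 3, CAGATG had 5 of 6 bases in shared footprints. GTTGCC had 5 of 6 at Ntrk3 promoter 2 and 4 of 6 in the Ntrk2 peak at 286 kb, and is in 8.96% of promoters and 10.3% of distal windows. A match describes the reference letters and does not show that a factor is bound.

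Of 89 other genes of the pathway, 85 were open at a promoter in both libraries, 95.5%, where over all protein-coding genes it was 63.2%. Among ligands and receptors it was 7 of 8, with Sort1, which encodes sortilin, at 8.31 in replicate 1 and 3.31 in replicate 2 and Sorl1 at 4.17 and 1.93. Ntf5, which encodes another ligand of TrkB, had none. Of 10 genes of precursor processing and release 8 were open, led by the convertase genes Pcsk2 (5.07 and 2.49) and Pcsk7 (7.70 and 2.23). Plg and Mmp9, which encode extracellular proteases, had no promoter peak.

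The signalling genes downstream were open almost throughout. Adaptors were open at 21 of 22 genes, with Grb2 at 15.2 and 5.54 and Crk at 13.9 and 5.40, and Bex1 had a peak of 0.410 in replicate 1 only. All 20 kinase cascade genes were open, with Rps6ka5 at 19.1 and 8.58 and Map2k1 at 22.8 and 8.16. So were all 19 genes for regulators known to act at Bdnf promoters, with Creb1 at 21.5 and 6.96, and all 10 genes induced by the pathway, with Dusp6 at 14.3 and 6.93 and Egr1 at 16.5 and 5.60. The median of the list was 7.21 in replicate 1 and 2.65 in replicate 2. Bdnf, Ntrk3 and Ngfr were below that median in both libraries, Ntf3 was below it in replicate 1 and had no value in replicate 2, and Ntrk2 was above it in both.

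By 4 values per gene, the strongest promoter signal and the number of distal peaks in each library, the protein-coding genes nearest to Bdnf were Fut10, Lrrn3 and Rsph14, with Euclidean distances of 0.157 to 0.224 on the log2(value + 1) scale. Nearest to Ntf3 were Moxd1, Lypd6b and Slc18a2 (0.171 to 0.195), to Ntrk2 Tbc1d22a, Mid1 and Mical2 (0.300 to 0.480), to Ntrk3 Grm7, Dcc and Atxn1 (0.226 to 0.290) and to Ngfr Jak3, Larp6 and Ndufa13 (0.108 to 0.188). This likeness rests on 2 libraries.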

How the data were processed

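DNase-seq files of 2 libraries were used as deposited, on mm10. Per the labels and deposited listings, the authors called peaks and footprints on each library's own filtered alignment, so nothing was pooled, with aligner, callers and versions not given in the sources used here. Each library has 2 deposited peak lists, and the longer was used. The authors' signal per peak has no stated scaling. Their score, p and q columns hold placeholders, and the deposited footprint score is 0.01 in every row. The deposited FDR (q-value) files list runs of bases with an FDR under 0.05.

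Peaks were assigned to promoters and loci with Python 3.11.15 and numpy 2.4.6, and FDR runs to windows with bedtools 2.31.1; the assignment was tested on simulated data. Peaks overlapping by at least 1 bp between libraries counted as shared, and peaks that overlap within a library were counted apart. A percentile is the share of values at or below a value. Likeness used a pseudocount of 1. Named were all members with every promoter, each member's 3 leading shared distal peaks and its strongest unshared one, the 2 leading genes and any gene without a promoter peak of each pathway group, and the 3 nearest genes. Members and lists were chosen with earlier results of these data known. Values of some genes the rule names are not reported here.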

Additional observations from a re-analysis of the deposited data

How the results depend on the processing

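With the authors' stricter peak list the 5 loci held a mean of 48 distal peaks per library in place of 90, and when sharing required an overlap of 50% of each peak, 46.7% of the distal peaks of replicate 1 were shared in place of 64%. The other alternatives kept these counts, taken over all 5 loci or the whole list, within 1.5 times: a promoter window of 250 or 1000 bp, coding starts only, equal numbers of peaks, gene bodies only, a distal limit of 2 kb, and either library by itself (75 and 105 distal peaks). Members' promoters open in both libraries ranged from 12 of 16 with coding starts only to 16 of 29, those of Bdnf from 6 to 7 of 8, and pathway genes from 83 to 86 of 89. Counts per gene were added after seeing the data: the stricter list left 2 and 5 distal peaks at Bdnf, 2 and 3 at Ntf3, 22 and 21 at Ntrk2, 10 and 25 at Ntrk3 and 3 and 3 at Ngfr, in replicates 1 and 2. Without replicate 2 the counts were 4 at Bdnf, where the mean of both was 6.5, and 4 at Ntf3, where it was 7. With a distal limit of 2 kb, also added, the ratio of the strongest distal to the strongest promoter peak of Ngfr in replicate 1 reversed, from 2.53 to 0.589. It moved from 2.55 to 1.31 in replicate 2, and at Bdnf from 0.745 to 0.152 and from 0.463 to 0.209. No paired analysis was possible because there is 1 group and no test. The depth in reads is unknown, so a promoter without a peak was not detectable at this depth and is not shown to be closed in every cell.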

Other observations

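In the reference sequence, with 1 mismatch allowed, the 12-letter CTCF consensus matched once in each of the peaks after Bdnf first exon 7, 267 kb into Ntrk2 and 1.33 kb into Ngfr, at positions 96, 96 and 86 of 200, and all 12 bases lay in footprints of both libraries. Whether in a footprint or not, a match was in 16.3% of distal windows of 200 bp and in 3.62% of the 250 bp upstream of promoters. Those distal windows are of all distal peaks of replicate 1, while the members' are of leading shared peaks, so the sets differ. Among the members, 3 of 14 distal windows and 1 of 29 promoters had a match, and the peak after Bdnf first exon 7 is in neither count. The printed intronic peaks of Ntf3 and Ntrk3 and the Bdnf peak after first exon 3 had none. The Ntrk3 peak 352 kb into the gene, the strongest of its distal peaks in replicate 2, was not searched. The remaining distal match, in the Ngfr peak at an exon, had 9 of 12 bases in shared footprints, and one at Bdnf promoter 4, 18 bp upstream of the start, had 1 of 12. Without a mismatch the consensus was in none of the members' windows, and is in 5.27% of distal windows. The looser search was added after the sequences had been seen. Binding of CTCF was not measured.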
